A study of Strongylocentrotus droebachiensis with 6 samples.

Results

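The genes foxx, FoxJ2 and fkh1 encode forkhead (Fox) transcription factors of the sea urchin. They were chosen by their names in the deposited table and made up 3 of its 31261 rows. They were picked with half-size and control values of these same libraries already known, so the differences between the groups are given for them as a description, without a test. The table names 7 forkhead rows in all, and the other 4 are FoxJ1, foxq2, FoxA and FoxG. A further 30889 rows carry LOC identifiers that the file does not pair with names, so other forkhead genes may lie among them.

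Polyadenylated RNA was sequenced from whole embryos of Strongylocentrotus droebachiensis, the green sea urchin, labelled wild type. The labels also call the material explants. The 3 half-size samples came from embryos whose eggs were held after fertilisation in 1 mM aminotriazole (ATA), which keeps the fertilisation envelope soft. At the 2-cell stage, 3.5 hours after fertilisation, these were washed for 15 min without calcium and magnesium and pushed through a needle, and the separated blastomeres grew on as small embryos. The 3 control samples were intact siblings, and the labels do not say whether these also passed through ATA, the wash or the needle. Both groups grew at 8 °C and were collected 46 hours after fertilisation as mesenchyme blastulae, when the skeleton-forming cells have entered the body cavity. The comparison asks which transcripts change in level when an embryo of smaller size forms the same body plan.

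Forkhead proteins bind DNA through a winged-helix domain and are sorted by sequence into lettered classes. Several classes mark particular territories of the sea urchin embryo. FoxA acts in the endoderm of the vegetal plate and gut and in the oral ectoderm, foxq2 in the apical neuroectoderm and FoxG in the ciliary band, and FoxJ1 drives the genes of motile cilia. FoxJ2 shares its class letter with FoxJ1, and in mammals it is known as a broadly expressed regulator. The letter of foxx lies outside the classes named in vertebrates. The row fkh1 carries the name of the founding fork head gene of Drosophila and no class letter, and no role is given here for foxx or fkh1.

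The libraries held 1804336 to 2294541 recovered reads. All values below are normalised read counts, that is, read counts that the authors divided by a size factor per library. Libraries differed along a pattern apart from the groups. Each half-size library shared its deviations from the group mean with 1 control library, at r = 0.76, 0.63 and 0.52 over the 11129 rows whose mean reached 10, against at most 0.01 for any other match. These 3 matches are called pairs A, B and C. They were found from the values and are stated nowhere in the labels. Deviations from a group mean cancel within the group, so a high r in 1 match lowers the r of the others. Rows of 7 lists of territory markers were looked up, and 29 of 30 were detected in at least 1 library. So were 23995 of all 31261 rows. cyiiib, an aboral ectoderm actin, was at 0 in all 6. Detection alone does not date an embryo, so the labelled stage was not tested by these lists.

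foxx was the member with the largest difference between the groups. It stood at 31.7, 77.5 and 104 normalised read counts in the half-size libraries of pairs A, B and C, and at 12.3, 53.4 and 29.0 in the control libraries of the same pairs. The half-size value was higher inside every pair, yet the groups overlapped, since the half-size library of pair A lay below the control library of pair B. Half-size embryos averaged 71.1 ± 36.7 and control embryos 31.6 ± 20.7 (SD, n = 3 each). Among the 11129 rows with a mean of at least 10, 14.1% were higher in the half-size library of all 3 pairs, and nothing is read from foxx being one of them.

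The log2 difference of foxx, half-size minus control on log2(value + 1), was 1.21 with a standard error of 0.55. With the pair as a block the standard error was 0.26, which may be too small because the pairs were read from these same values. Inside pairs A, B and C the log2 difference was 1.30, 0.53 and 1.81. The difference was positive in each pair, smallest in pair B and largest in pair C. The authors' deposited table gives foxx a log2 fold change of 1.16 with a standard error of 0.57. Without the control library of pair A, the lowest of the 6, the log2 difference was 0.68. That value also takes in differences between pairs, since pair A is then represented by its half-size library alone.

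The reads behind foxx numbered 32, 88 and 86 in the half-size libraries of pairs A, B and C, and 12, 62 and 29 in the control libraries. Summed, this is 206 half-size and 103 control reads, a ratio of 2.11 after scaling by the size factors, with a 95% interval of 1.66 to 2.70 from counting error alone. The SD of the unscaled reads between libraries was 3.83 times the SD that counting alone gives in half-size and 4.34 times in control embryos. Differences in depth enter these 2 values. Counting error was thus the smaller part of the spread of foxx. In whole embryos, more cells that express a gene and more RNA in each cell cannot be told apart.

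fkh1 showed large differences between pairs and almost none between the group means of its log values. It had 276, 55.5 and 71.5 normalised read counts in the half-size libraries of pairs A, B and C, and 169, 74.1 and 85.9 in the control libraries. Both libraries of pair A lay above all 4 others. The half-size value was higher in pair A and lower in pairs B and C.

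Half-size embryos averaged 134 ± 123 normalised read counts of fkh1 and control embryos 110 ± 51.6 (SD, n = 3 each). Its log2 difference was 0.01 with a standard error of 0.55, or 0.22 with the pairs, read from these same values, as a block. Inside pairs A, B and C it was 0.71, -0.41 and -0.26. The mean near 0 was therefore made of differences with opposite signs. The authors' deposited table gives fkh1 a log2 fold change of 0.30 with a standard error of 0.55. On the log2(value + 1) scale the difference was -0.69 once the half-size library was left out of pair A, and it was -0.34 without both libraries of pair A. The -0.69 also takes in differences between pairs, since pair A is then represented by its control library alone. The reads behind fkh1 were 279, 63 and 59 in half-size and 165, 86 and 86 in control libraries. Summed, this is 401 half-size and 337 control reads, a ratio of 1.26 after scaling by the size factors. Its 95% interval was 1.09 to 1.46 from counting error alone. The SD of the unscaled reads between half-size libraries was 10.9 times that of counting alone, a spread which this interval leaves out.

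**Figure D1:**
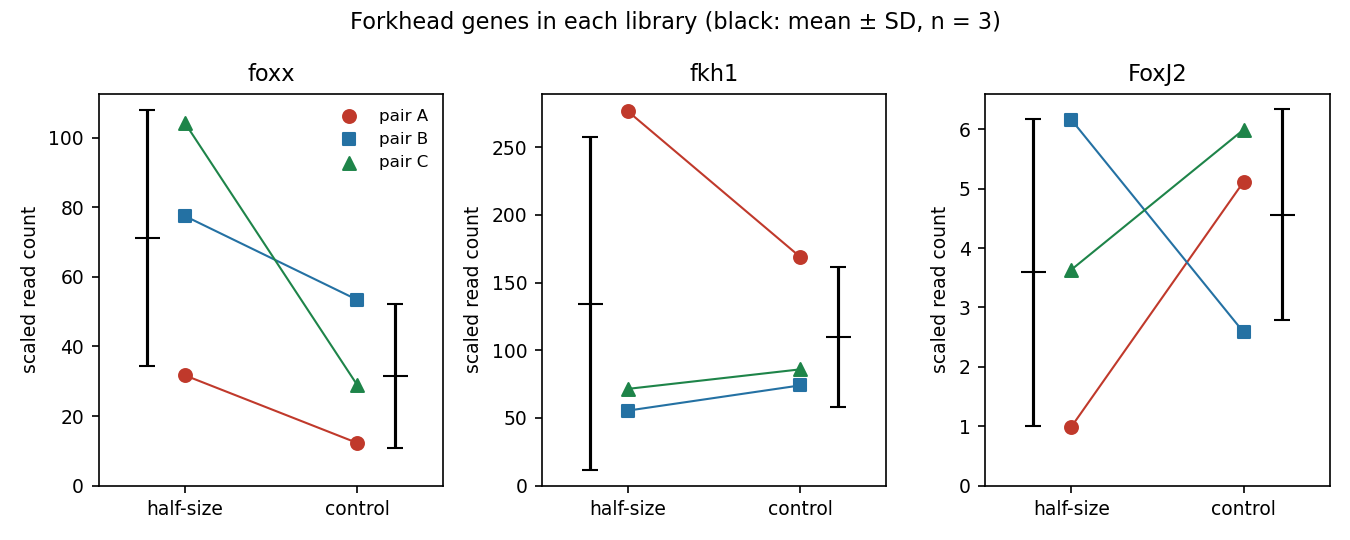
Normalised (scaled) read counts of foxx, fkh1 and FoxJ2 on linear axes in each half-size and control library, with lines joining the libraries of a pair and black bars for the mean ± SD of each group (n = 3). foxx is higher in the half-size library of all 3 pairs (104 against 29.0 in pair C), fkh1 is high in both libraries of pair A (276 and 169), and the lines of FoxJ2 cross.

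FoxJ2 was close to the limit of these libraries. It had 0.99, 6.16 and 3.64 normalised read counts in the half-size libraries of pairs A, B and C, and 5.12, 2.58 and 5.99 in the control libraries. The groups overlapped, and the half-size value was lower in pairs A and C and higher in pair B. The values rest on 1, 7 and 3 half-size reads and 5, 3 and 6 control reads.

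The 95% exact Poisson intervals of those reads all overlapped. The widest apart were the half-size library of pair A, with 0.025 to 5.57 reads, and the half-size library of pair B, with 2.81 to 14.4 reads. Over the groups FoxJ2 had 11 half-size and 14 control reads, a ratio of 0.83 with a counting interval of 0.34 to 1.97. The interval covers lower and higher levels in half-size embryos, so no difference was detectable at this depth in either direction. The log2 difference was -0.40 with a standard error of 0.62, and it became positive once pair A was left out, at 0.20 without both of its libraries and at 0.11 without its half-size library. The 0.11 also takes in differences between pairs. The authors' deposited table gives FoxJ2 a log2 fold change of -0.32 with a standard error of 1.11. FoxJ2 passed the filter of a mean of at least 1 used for the fit, as did foxx and fkh1. It did not reach the mean of 10, which foxx and fkh1 did.

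**Figure D2:**
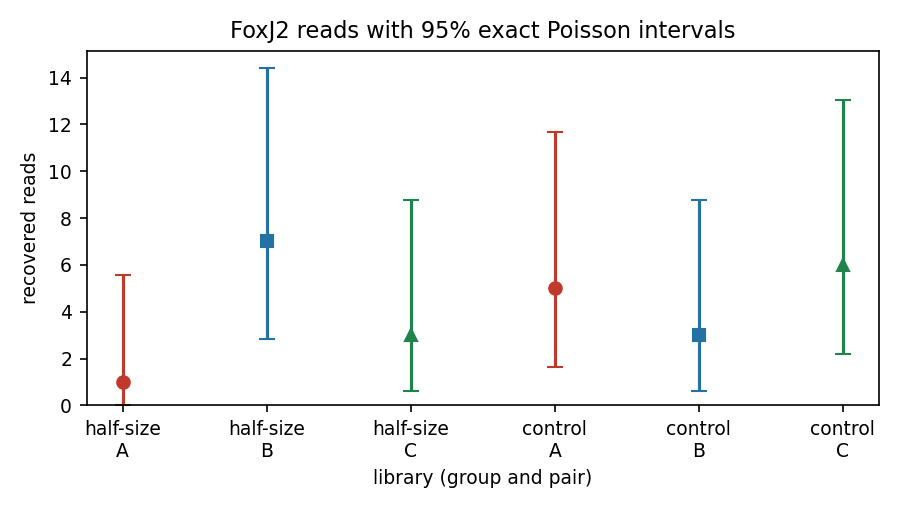
Recovered FoxJ2 reads in each half-size and control library with 95% exact Poisson intervals, which cover counting error only. The points lie between 1 and 7 reads and all 6 intervals overlap.

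The 3 genes divided their spread in different ways. Of the sum of squares of log2(value + 1) over the 6 libraries, the pair took 55.0% for foxx, 90.4% for fkh1 and 21.5% for FoxJ2. The group took 37.9% for foxx, 0.0053% for fkh1 and 9.71% for FoxJ2. The remainder was 7.16% for foxx, 9.61% for fkh1 and 68.8% for FoxJ2. The pairs divide the libraries more finely than the groups do and were read from the values. A pair share above the group share is therefore not in itself a larger effect. For the median of the 11129 rows of mean 10 or more, the shares were 65.5% for the pair, 6.45% for the group and 18.8% for the remainder. The pair share of fkh1 was above that of 84.9% of these rows, and the pair share of foxx above that of 37.9%. Among the other forkhead rows the pair took 92.3% for FoxA, 89.0% for foxq2, 47.5% for FoxG and 30.5% for FoxJ1.

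foxx and fkh1 were also among the more variable rows. The log2(value + 1) of foxx spanned 2.99 from the lowest to the highest library, a wider span than that of 96.9% of those rows. That of fkh1 spanned 2.30, wider than that of 93.2% of rows. The span of foxq2 was 2.80, wider than that of 96.3% of rows. Those of FoxA (64.7%), FoxJ1 (42.7%) and FoxG (5.2%) were wider than smaller shares of rows. In the half-size group the highest library was 3.29 times the lowest for foxx and 4.98 times for fkh1, and in the control group 4.35 times for foxx and 2.28 times for fkh1. The median row had 1.64 times in half-size and 1.57 times in control libraries.

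**Figure D3:**
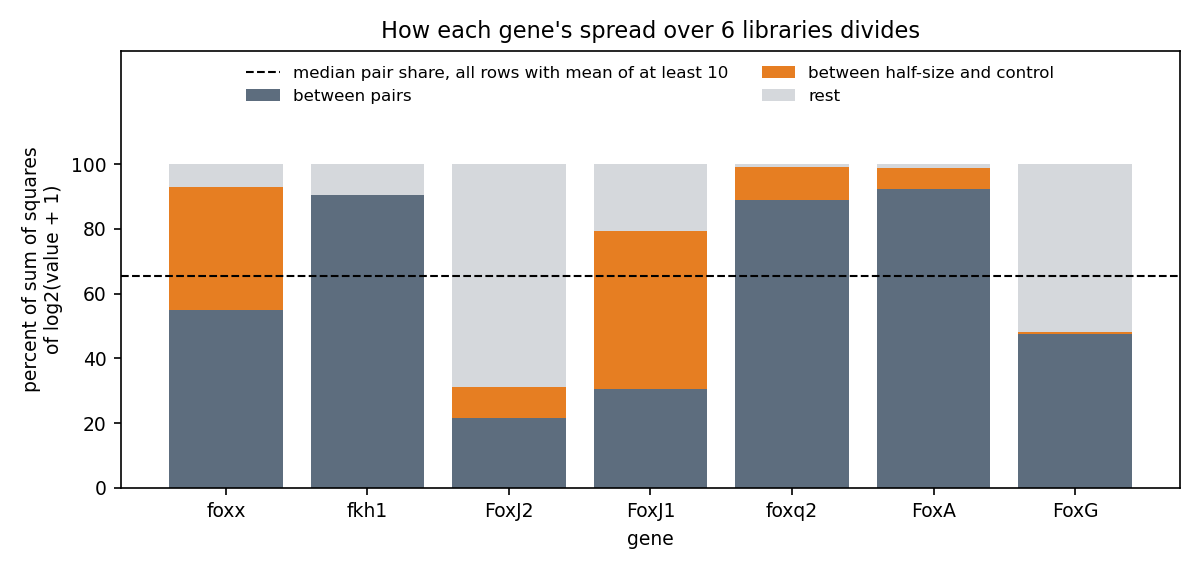
Percent of the sum of squares of log2(value + 1) over 6 libraries that lies between pairs, between half-size and control, and in the remainder, for the 7 named forkhead rows, with the median pair share of all rows with a mean of at least 10 (65.5%) as a dashed line. The pair takes 90.4% for fkh1, and the remainder takes 68.8% for FoxJ2.

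The other forkhead rows were set beside these values. In limma-trend 0 of the 4 passed an adjusted p of 0.05, where 0% of 18016 rows did. In edgeR's quasi-likelihood test 0 of the 4 passed (0% of 11346 rows). In DESeq2 0 of the 4 passed (0.0167% of the 23976 rows with an adjusted p). At an unadjusted p under 0.05, limma-trend without the pair block had 0 of the 4 and 1.34% of the 18016 rows. With the block it had 2 of the 4 (FoxJ1 and foxq2) and 5.27% of those rows. The block treats pairs that were read from these same values as known, so its p-values may be too small. With the block, 0 of the 4 passed after adjustment. Of the rows with an adjusted p, limma-trend then called 0.0167% of 18016, edgeR 0.0970% of 11346 and DESeq2 0.225% of 9346. Nothing is read from a count of 0 at such shares. The median log2 difference of the 4 was 0.22, against -0.00047 over all rows tested in limma-trend, and 3 had positive and 1 a negative value.

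foxq2, the apical gene, had 16.8, 50.2 and 70.3 normalised read counts in the half-size libraries of pairs A, B and C, and 9.21, 38.8 and 44.0 in the control libraries. Its pair differences of 0.81, 0.36 and 0.67 were all positive, as were those of foxx. For the cilia regulator FoxJ1 the half-size libraries had 296, 203 and 271 and the control libraries 223, 191 and 162, with pair differences of 0.41, 0.09 and 0.74. Of the 6 forkhead rows with a mean of at least 10, 3 were higher in the half-size library of all 3 pairs. This held for 14.1% of all such rows, and foxx was chosen with its values known. FoxA, the endoderm regulator, differed by -0.08, -0.26 and -0.32 and was lower in every half-size library than in its paired control, as were 12.3% of all rows with a mean of at least 10. FoxG, a ciliary band gene, had the smallest spread of the 7, at 115 to 125 in half-size and 99.9 to 130 in control libraries. The groups overlapped for 6 of 6 forkhead rows with a mean of at least 10, members included, and did not overlap in 4.57% of all such rows.

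**Figure D4:**
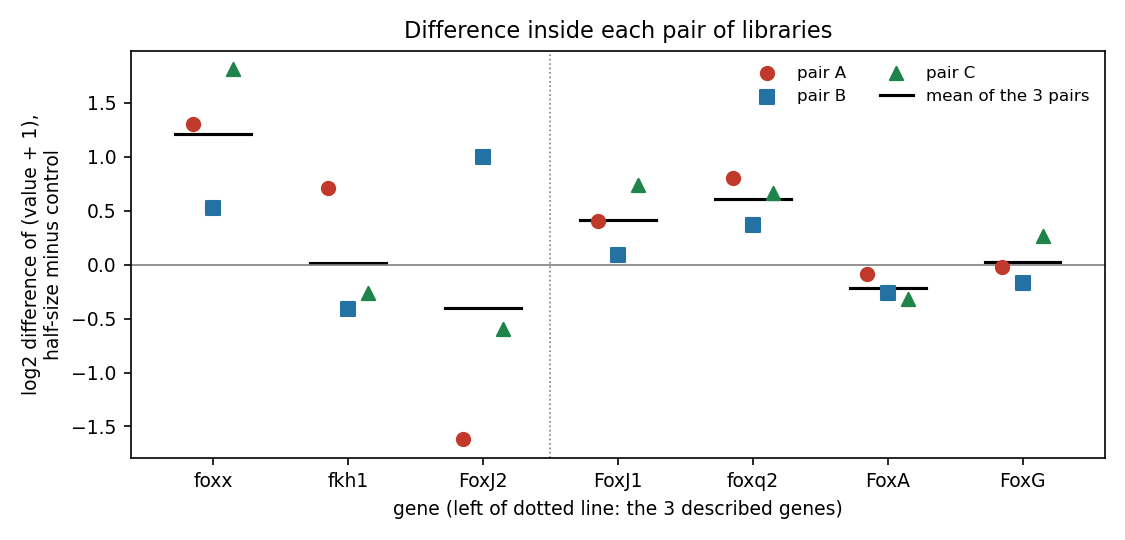
Log2 difference of (value + 1), half-size minus control, inside pairs A, B and C for each named forkhead row, with a bar at the mean of the 3 pairs. The points of foxx lie between 0.53 and 1.81, those of fkh1 between -0.41 and 0.71, and those of FoxJ2 between -1.62 and 1.00.

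Across the pairs, the forkhead rows with a mean of at least 10 ran in opposite directions. In fkh1, FoxA and FoxJ1 pair A was above pairs B and C in both groups, which held for 3 of 6 forkhead rows and for 22.0% of all 11129 rows. In foxx and foxq2 pair A was below pairs B and C in both groups, which held for 2 of 6 and for 21.0% of all rows. FoxA had 4058 and 4298 normalised read counts in the half-size and control libraries of pair A, and 1914 to 2267 in the half-size and 2382 to 2712 in the control libraries of pairs B and C. Over the 6 libraries the Pearson r of log2(value + 1) was 0.89 between foxx and foxq2, 0.88 between fkh1 and FoxA, and -0.68 between foxx and fkh1. Over the 4 libraries outside pair A these were 0.74, 0.20 and -0.67, so the r of fkh1 with FoxA rested on pair A.

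The named rows most like fkh1 were spicule matrix genes. Among 190 other rows with a gene name and a mean of at least 10, the highest Pearson r over the 6 libraries was that of SM50 (0.99), followed by SM30A (0.98) and SM29 (0.97), which code for proteins of the larval skeleton. Of all 11128 rows compared, 4 had an r as high as SM50, itself included. An r of at least 0.9 was reached by 3.58% of all rows and by 20 of the 190 named rows, so many rows followed the same pairs. Without both libraries of pair A, which lie farthest from the median of fkh1, r over the 4 others was 0.85 for SM50, 0.57 for SM30A and 0.82 for SM29.

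SM50 had 1374, 367 and 399 normalised read counts in the half-size libraries of pairs A, B and C, and 931, 403 and 560 in the control libraries. fkh1 and SM50 put the 6 libraries in the same order, from the half-size library of pair B as the lowest to the half-size library of pair A as the highest. The 8 skeletogenic marker rows in the file (SM50, SM30A, SM37, msp130, P16, Alx1, ets1 and dri) had a median r of 0.95 with fkh1. For 7 of them r was above 0, and for ets1 it was -0.70. Over the 4 libraries outside pair A the median was 0.51, with -0.24 for ets1 as the lowest and 0.91 for dri as the highest, so the value of 0.95 rested on pair A. Some markers of another territory came as close over the 6 libraries. The aboral ectoderm rows spec2c and SPEC1 had r of 0.95 and 0.94 with fkh1, and 0.71 and -0.62 outside pair A. They were the highest of the 5 aboral rows with a mean of at least 10. The median r of these 5 was 0.07, with 3 above 0 and -0.61 for Tbx2/3 as the lowest. Outside pair A their median was 0.71. The summed level of the 8 skeletogenic marker rows ran from 3913 to 10710 in half-size and from 3824 to 7787 in control libraries. None of these 8 rows was at 0. The part of these markers in the values of fkh1 was not tested.

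The named rows most like foxx were Ets4 (r = 0.99), eve (0.94) and Wnt8 (0.94). Ets4 is an ETS-family factor known to act on the hatching enzyme promoter in Strongylocentrotus purpuratus. eve is a homeobox gene of the vegetal endoderm, and Wnt8 is a secreted ligand of the vegetal territory. Their territory as a list did not run with foxx. Of the 6 endoderm and vegetal plate marker rows, only 2 (eve and Wnt8) had an r above 0. The median r of these 6 was -0.35, and 0.02 outside pair A. Of 11128 rows, 7 had an r as high as Ets4, itself included, and 1.59% reached 0.9. Without the 2 libraries farthest from the median of foxx, the half-size library of pair C and the control library of pair A, r over the 4 others was 0.99 for Ets4, 0.92 for eve and 0.75 for Wnt8.

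Ets4 had 51.5, 145 and 142 normalised read counts in the half-size libraries of pairs A, B and C, and 20.5, 89.6 and 39.0 in the control libraries. Its pair differences of 1.29, 0.69 and 1.84 were close to the 1.30, 0.53 and 1.81 of foxx. HE, the hatching enzyme gene, had 5.94, 177 and 471 in half-size and 10.2, 171 and 39.96 in control libraries, an r of 0.86 with foxx and of -0.90 with fkh1. Over the 4 libraries outside pair A these were 0.96 and -0.50. Skeletogenic markers had a median r of -0.72 with foxx, and of -0.85 outside pair A. HE thus ran with foxx and against fkh1 over the 6 libraries, while most skeletogenic rows ran with fkh1 and against foxx. Their part in the values of both genes was not tested.

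**Figure D5:**
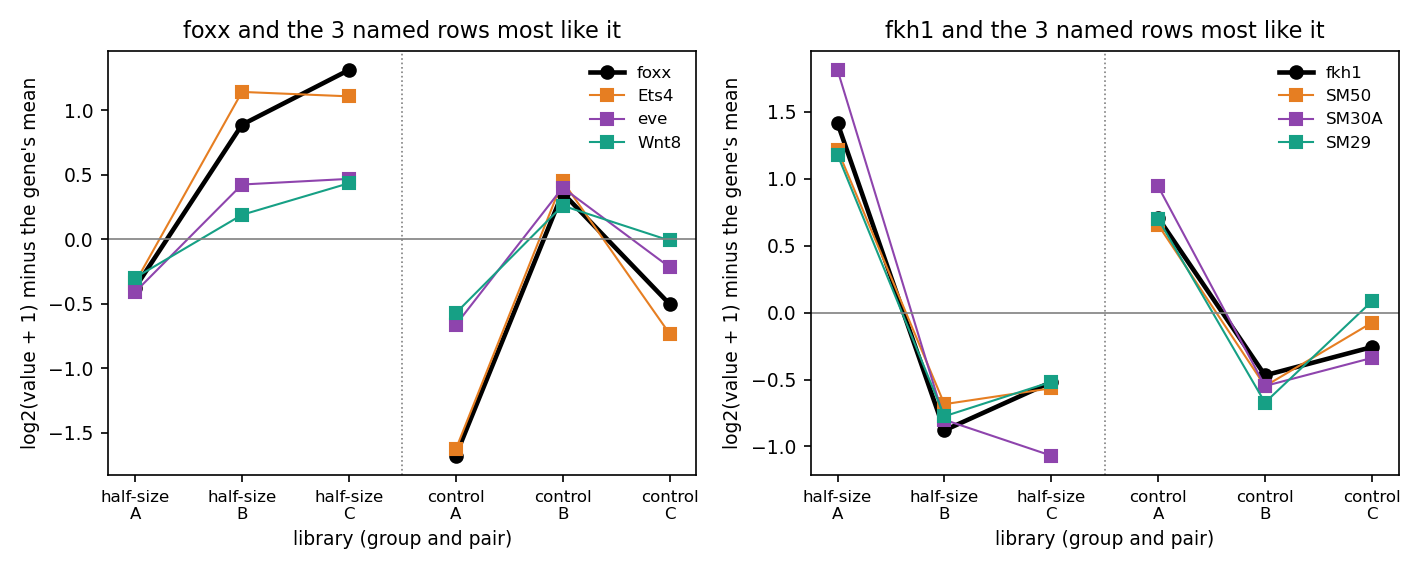
Log2(value + 1) minus each gene's own mean over the 6 libraries, for foxx with Ets4, eve and Wnt8 (left) and for fkh1 with SM50, SM30A and SM29 (right), half-size libraries first in each panel and lines joining libraries of a group. Ets4 follows foxx closely (r = 0.99) and SM50 follows fkh1 (r = 0.99).

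For FoxJ2 the most like named rows were Hlf, a bZIP transcription factor gene (r = 0.90), NADK, an NAD kinase gene (0.80), and KIF15, a mitotic kinesin gene (0.77), over 191 named rows. After the 2 libraries farthest from its median were left out (half-size of pair A, control of pair B), r was 0.75 for Hlf, 0.0082 for NADK and 0.07 for KIF15. With 1 to 7 reads a library, this order is not a finding.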

How the data were processed

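Values of 6 libraries, 3 per group, came from 1 table. Identifiers are those of Spur_4.2 in NCBI's annotation, per the file headers. This is an assembly of the related Strongylocentrotus purpuratus, and reads of diverged genes may be lost in both groups. Bowtie2 2.2.2, edgeR and DESeq appear without roles in the submitters' processing notes. The kit was strand-specific, per the labels' protocols. The strand setting and the counting program were not given in the sources used here, so overlapping, antisense and near-identical genes cannot be separated.

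The deposited signal is the authors' read count divided by a size factor per library; 100% of values were whole multiples of their column's step within 1e-06, which gave the reads back. The authors' deposited log2 fold changes were copied with their standard errors, which count as a score here. The deposited test score and p-values were not used. The 3 columns of a group repeat 1 header, with the number 1 in each, so they cannot be told apart as numbered replicates.

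Log2(value + 1) was fitted with limma-trend (R 4.3.3, limma 3.58.1) in the 18016 rows whose mean reached 1, and p-values were adjusted by Benjamini-Hochberg. Alternatives were edgeR 4.0.16, limma-voom and DESeq2 1.42.0 on recovered reads, other scalings, pseudocounts and filters, the pair block and left-out libraries. The fits were tested on simulated counts. Replicates are labelled biological, and nothing says they had separate parents. The p-values thus set a group difference against the spread of these samples only, which may be technical.

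The members and lists were chosen with earlier results of these data known. Named genes were the members, every forkhead row the file names with a mean of at least 10, and for each member the 3 named rows with the highest r over the 6 libraries. Marker symbols SM30A and blimp1/krox, the split by pair A and the r values with markers were added after the values were seen. HE is one of the marker rows. Intervals cover counting error only. No gene lengths were used, so levels are not compared between genes, and no sequences are shown.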

Additional observations from a re-analysis of the deposited data

How the results depend on the processing

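No paired analysis by labelled numbers was possible because all 6 column headers show the same number, 1. A replicate block on the pairs, which were read from the values, treats them as known. In limma-trend the 0 called rows stayed at 0 in edgeR, limma-voom, under each scaling, pseudocount and filter tried, and without each library (range 0 to 0) or pair. DESeq2 called 4. With the replicate block, DESeq2 called 21, edgeR 11 and limma-trend 3; the cause was not tested. Called forkhead rows other than the members numbered 0 in all of these (range 0 to 0). The log2 difference of foxx kept its sign in 21 of 21 alternatives (0.68 to 1.70 over left-out libraries), that of fkh1 in 16 of 21 (-0.69 to 0.45 over left-out libraries, -0.03 with total read scaling) and that of FoxJ2 in 15 of 17 (-0.82 to 0.11 over left-out libraries, -1.11 without pair B and 0.20 without pair A). The filters and the limma-trend block could not change a row's log2 difference, and leaving out pairs could not turn the sign of foxx. Nothing is read from these counts of signs, which reuse the same 6 libraries. edgeR and limma-voom filtered FoxJ2 out, and it also missed the stricter filter. The signs of fkh1 and FoxJ2 thus changed when single libraries were left out, which also takes in differences between pairs. The pair shares moved by less than 10 percentage points under the pseudocounts and scalings tried, which were chosen after the data were examined. Depth limits FoxJ2, with 1 to 7 reads a library.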
